A study of Mus musculus with 2 samples.

Results

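Cadherins and Epcam are surface proteins by which cells adhere to their neighbours, and 6 of their genes were described here: Cdh1, Cdh2, Cdh3, Cdh6, Cdh11 and Epcam. The members were taken by their symbols from both count matrices, in which all 6 were found among the 27998 genes listed for E12.0 and the 31053 listed for E9.5. The study profiled mandibles of mouse embryos by droplet single-cell RNA sequencing, with 1 library per stage. Embryos of both libraries carried K14Cre and R26mT/mG, a Cre under the keratin 14 promoter with a membrane reporter that turns to GFP in cells in which Cre has acted. For E12.0, the 6 embryos of 1 litter were pooled, the epithelium was peeled from the mesenchyme with Dispase, and GFP-positive single cells were sorted. For E9.5, the arches of 8 embryos were pooled and dissociated whole, without a sort, so mesenchyme, endoderm and vessels were present.

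Classical cadherins bind the same or related cadherins on the adjacent cell, and their cytoplasmic tails hold catenins that couple the junction to actin. Cdh1 (E-cadherin) and Cdh3 (P-cadherin) are the type I cadherins of epithelia, Cdh2 (N-cadherin) is the type I cadherin of neural and mesodermal tissues, and Cdh6 and Cdh11 are type II cadherins best known from neural crest, kidney and mesenchyme. Epcam is a surface glycoprotein of simple and developing epithelia that is not a cadherin and is widely used to recognise epithelial cells. In the mandibular arch, an epithelial sheet covers neural crest mesenchyme, a core of mesoderm gives rise to muscle, and later the sheet folds into tooth and gland buds.

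Positions are those of the GRCm38 assembly. Cdh1 (ENSMUSG00000000303, chr8:106603351-106670246, plus strand) and Cdh3 (ENSMUSG00000061048, chr8:106510891-106557297, plus strand) are near each other on the chromosome that also holds Cdh11 (ENSMUSG00000031673, chr8:102632095-102785642, minus strand). Cdh6 (ENSMUSG00000039385) lies at chr15:13028701-13173675 on the minus strand and Epcam (ENSMUSG00000045394) at chr17:87635979-87651129 on the plus strand. Promoters are shown for Epcam and Cdh6, the 2 members of 6 that matched the RefSeq promoter table (Cdh1, Cdh2, Cdh3 and Cdh11 had no match), because the factors Snai1, Snai2, Zeb1 and Zeb2, whose levels are given further on, bind the E-box words CACCTG and CAGGTG. The sequences are from RefSeq (GRCm38.p6) and run 5′ to 3′ from 250 bases before to 50 bases after the start of the gene, with each word, on either strand, in capitals.
Epcam, chr17:87635729-87636028, plus strand: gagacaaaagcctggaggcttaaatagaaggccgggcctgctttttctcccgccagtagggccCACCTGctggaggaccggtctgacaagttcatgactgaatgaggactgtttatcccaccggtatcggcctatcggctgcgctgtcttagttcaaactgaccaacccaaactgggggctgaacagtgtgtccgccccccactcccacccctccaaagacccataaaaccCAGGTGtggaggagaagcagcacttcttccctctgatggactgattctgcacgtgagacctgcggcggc
Cdh6, chr15:13173626-13173925, minus strand: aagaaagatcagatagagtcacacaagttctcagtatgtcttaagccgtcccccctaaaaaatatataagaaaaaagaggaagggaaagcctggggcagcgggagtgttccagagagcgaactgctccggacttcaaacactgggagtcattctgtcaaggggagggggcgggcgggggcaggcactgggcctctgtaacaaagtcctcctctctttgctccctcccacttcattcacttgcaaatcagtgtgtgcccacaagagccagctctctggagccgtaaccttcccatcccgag
The Epcam window held the word at positions -187 and -19 from the start, and the Cdh6 window held none. Of 32851 RefSeq promoter windows of this length, 6640 (20.2%) held at least 1 such word and 946 (2.88%) at least 2. The letters describe the window only, and binding was not measured.

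After the limits on genes and mitochondrial counts, 11355 of 11663 barcodes (E12.0) and 12744 of 14293 (E9.5) remained, with median UMI counts per cell of 6349 and 13460.5. The libraries shared 44 barcodes. With 1 pooled sample per stage there was no replicate and no test, and every interval (95%, exact Poisson for levels and Clopper-Pearson for shares) covers counting error only. Levels are UMI counts summed over the cells of a group, per 1000000 UMIs of that group (CPM). UMIs count the 3′ ends of transcripts, so a level is compared between groups and not between genes. A member was called higher or lower when the ratio of 2 groups, with 5 CPM added to both, was at least 2 (or at most 0.5) and the higher group had at least 10 CPM. The share of all tested genes that met the same call stands beside each comparison.

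Cells of E9.5 were grouped by marker genes that include no member. The epithelium (2131 cells) was taken by general epithelial genes with ectodermal ones, the endoderm (94) by general epithelial genes with Foxa1, Foxa2 and their like, and the mesenchyme (3666) by Prrx1, Twist1 and others. The mesoderm core (510) was taken by Msc, Tcf21 and others, the endothelium (467) by Pecam1, Kdr and others, and the erythroid cells (54) by red cell genes. A further 273 cells met the neural crest gate. They carried Sox10 in 98.5% and Fabp7 in 94.5% of cells but Foxd3 in 10.3%, and their summed mesenchyme markers reached 1344 CPM beside 1584 CPM in the mesenchyme. Sox10, Fabp7 and Foxd3 are among the 5 genes of this gate, which needs at least 3, so their shares follow in part from the gate. Of the 273 cells, 262 had just that minimum. Beside the neural crest genes that the gate required, its cells thus carried mesenchyme markers. The gates left 5023 cells (39.4%) outside every group and 526 epithelial cells that were neither clearly ectodermal nor endodermal. At E12.0, clusters built without adhesion genes gave 7 zones named from fixed markers, with 227 to 2856 cells each. Of the E12.0 cells, 4171 lay in 5 clusters without a name.

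At E9.5, Cdh1, Cdh3 and Epcam marked the epithelial side, and Cdh6 and Cdh11 the mesenchymal side. Between epithelium and mesenchyme 5 of the 6 members were called, 3 higher and 2 lower in the epithelium, where 9.31% of the 8248 genes tested were called in either direction, 6.97% higher and 2.34% lower. The median of the members was 0.85 on the log2 scale, beside 0.09 over all genes tested. Cdh2 was the member not called, at 14.6 CPM (95% interval 13.3–16.1) in the epithelium and 29.7 CPM (28.2–31.1) in the mesenchyme.

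Cdh1, the cadherin of epithelial adherens junctions, stood at 57.5 CPM (54.8–60.3) in the epithelium and 2.07 CPM (1.70–2.48) in the mesenchyme, a ratio of 27.8 (23.0–33.9). Its UMIs were found in 52.2% of epithelial cells and 3.001% of mesenchymal cells. In the other gates outside the epithelia it lay between 1.44 CPM in the mesoderm core and 2.68 CPM in the neural crest gate. None of the 54 erythroid cells (median 17064 UMIs) had a Cdh1 UMI, which by 3 counts allows up to 5.56% of cells with a UMI, at a depth above that of the epithelium (median 13446 UMIs). The endoderm held the highest level of all gates, 106 CPM (89.3–126), which was 1.85 times (1.54–2.20) that of the ectodermal epithelium and not called. Cdh1 thus separated both epithelia from every other named gate.

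Cdh3, a cadherin of basal and ectodermal epithelia, had 35.2 CPM (33.1–37.4) in the epithelium and 1.99 CPM (1.64–2.40) in the mesenchyme, a ratio of 17.7 (14.5–21.7). In the endoderm its level was 21.6 CPM (14.3–31.2), 0.613 times (0.405–0.891) that of the epithelium and not called. Cdh1 was thus higher in the endoderm and Cdh3 in the ectodermal epithelium, each by less than a call. The mesoderm core had 5.91 CPM (4.24–8.02) of Cdh3, in 7.65% of cells, beside 1.85% of erythroid cells. That level was 2.96 times (2.02–4.28) the level in the mesenchyme, but it stayed under the 10 CPM that a call needs. The log2 ratio with 5 CPM added, 0.64, was also short of a call. The ectoderm markers, 2 of 8 of them at 0, summed to 145 CPM in the mesoderm core and to 19.7 CPM in the mesenchyme. The general epithelial markers summed to 33.3 and 23.1 CPM, and the part of either list in this Cdh3 was not tested.

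Epcam, used across fields as an epithelial surface marker, reached 518 CPM (509.9–526) in the epithelium and 536 CPM (497–578) in the endoderm. The mesenchyme had 11.3 CPM (10.4–12.2), so that the epithelium exceeded it 45.8-fold (42.3–49.7). A UMI of Epcam was seen in 98.8% of epithelial, 98.9% of endodermal, 13.6% of mesenchymal and 11.1% of erythroid cells. Outside the epithelia the levels of Epcam (7.84 to 12.0 CPM) did not exceed that of the erythroid cells, 12.0 CPM (6.01–21.5), a cell type that should lack it. The erythroid level rested on 11 UMIs in 6 cells, with 6 of them in 1 cell, and was 5.64 CPM (1.83–13.2) without that cell. The levels of the other gates outside the epithelia lay within both intervals, so they were not separated from background. Thinned to 4000 UMIs, 0 of 50 erythroid cells had an Epcam UMI, and 4.41% (3.75–5.14) of mesenchymal cells had one.

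**Figure D1:**
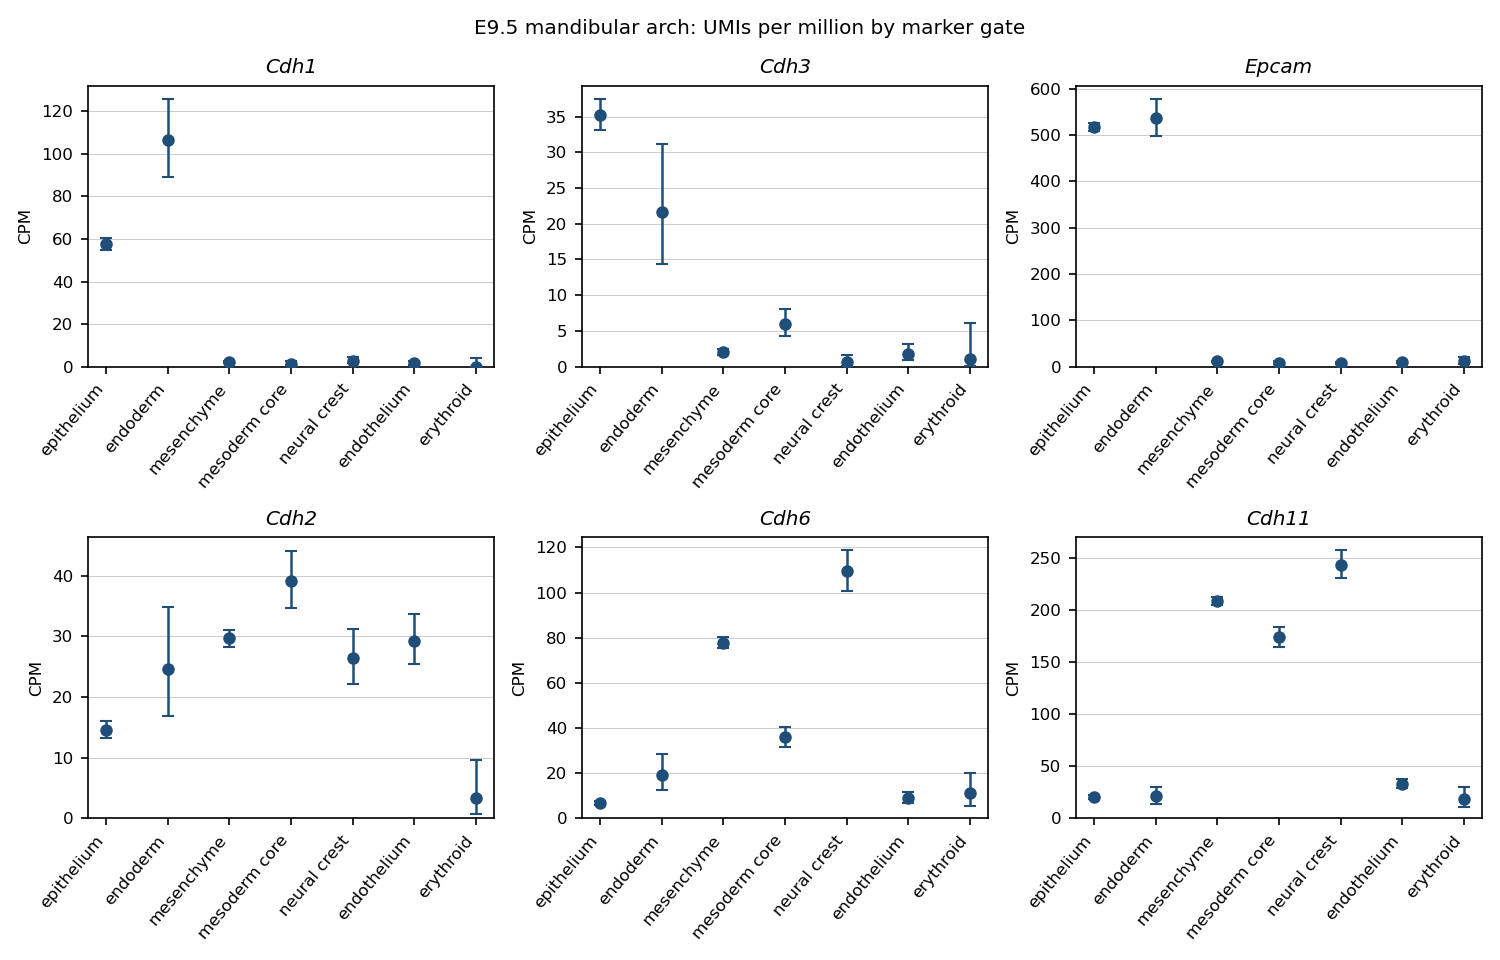
Levels of the 6 members in the E9.5 gates, in CPM (UMIs per 1000000 of the group), with bars for exact 95% Poisson intervals of the summed counts (1 library, no replicates). Cdh1, Cdh3 and Epcam are high in epithelium and endoderm, Cdh6 and Cdh11 in mesenchyme, mesoderm core and neural crest gate.

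Cdh11, a type II cadherin of mesenchyme, was at 209 CPM (205–212) in the mesenchyme, 174 CPM (164–184) in the mesoderm core and 243 CPM (230.0–257) in the neural crest gate. The epithelium had 20.3 CPM (18.7–22.0), which was 10.3-fold (9.46–11.2) under the mesenchyme. Endoderm (20.8 CPM) and epithelium were both near the erythroid level of 18.6 CPM (10.8–29.8), so their Cdh11 was not separated from that level. The erythroid gate set no limit on mesenchyme genes, so its Cdh11 is not a sure background. That erythroid level rested on 17 UMIs in 14 cells, and was 14.7 CPM (7.85–25.2) without the cell that held the most. The endothelium, at 32.9 CPM (28.7–37.5), lay above both erythroid estimates, with an interval that overlapped the first alone. It was 6.35-fold (5.56–7.28) under the mesenchyme. The mesenchyme markers summed to 268 CPM in the endothelium, beside 103 CPM in the erythroid cells and 75.9 CPM in the epithelium, and their part in the endothelial Cdh11 was not tested.

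Cdh6, a type II cadherin of migrating neural crest and of the kidney, showed more spread among the non-epithelial gates. Its level was 77.7 CPM (75.4–80.1) in the mesenchyme, 35.7 CPM (31.4–40.5) in the mesoderm core and 109 CPM (101–119) in the neural crest gate. The mesoderm core was called lower than the mesenchyme, 2.17-fold (1.91–2.48), the only call among 4 members tested there, where 5.75% of genes were called. The call, at -1.02 on the log2 scale with 5 CPM added, was lost at -0.89 with the mean of per-cell CPM and at -0.75 with E9.5 clusters in place of gates. The neural crest gate exceeded the mesenchyme 1.41-fold (1.29–1.54), and none of its 4 tested members was called, where 0.397% of genes were. In the endothelium Cdh6 had 8.88 CPM (6.78–11.4) and in the epithelium 6.58 CPM (5.69–7.57). Both lay within the erythroid interval (10.9 CPM, 5.25–20.1), so these levels were not separated from that of the erythroid cells. The erythroid gate set no limit on mesenchyme genes, whose markers summed to 103 CPM there and 75.9 CPM in the epithelium. The Vgll2-positive epithelium given below had Cdh6 under this interval, so the erythroid level is not a sure background for Cdh6. Without the 1 erythroid cell that held 4 of the 10 UMIs, the erythroid level was 6.71 CPM (2.46–14.6). Inside the epithelium Cdh6 differed between Vgll2-positive and Vgll2-negative cells, as given below, and the source of its UMIs was not tested. The ratio of mesenchyme to epithelium was 11.8 (10.2–13.7).

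The endoderm and the ectodermal epithelium differed in Cdh1 and Cdh3 by less than a call, as given above. Of the 94 endoderm cells, 75 had only the minimum number of genes on a list of their gate. Cdh6 in the endoderm was at 19.3 CPM (12.5–28.4), with 25 UMIs in 15 of the 94 cells, and 2.93 times (1.85–4.45) the epithelial level. It was the only one of 6 tested members called, with 2.12% of genes called in either direction. The interval overlapped that of the erythroid cells, and the call was lost in cells thinned to 4000 UMIs each, where the log2 ratio with 5 CPM added moved from 1.07 to 0.94.

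Cdh2 (ENSMUSG00000024304, chr18:16588877-16809246, minus strand), the cadherin of neural tube, somite and heart, was the most even member across the E9.5 gates. It had 39.2 CPM (34.7–44.2) in the mesoderm core, 29.7 CPM in the mesenchyme, 29.3 CPM (25.4–33.7) in the endothelium and 26.4 CPM (22.2–31.2) in the neural crest gate. The last 3 of these levels could not be separated by their intervals. The endoderm had 24.7 CPM (16.9–34.8) and the epithelium 14.6 CPM (13.3–16.1), above the 3.28 CPM (0.677–9.59) of the erythroid cells. In the endothelium, Cdh6 and Cdh11 were called lower than in the mesenchyme while Cdh2 had a ratio of 0.988 (0.848–1.15), so 2 of 4 tested members were called, beside 11.9% of genes. The vascular cadherin Cdh5, no member, was at 194 CPM in the endothelium and 1.12 CPM in the mesenchyme, 172-fold (133–226) higher.

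As shares of the summed UMIs of the 5 cadherins, the gates fell into distinct patterns. Cdh1 took 42.8% (41.3–44.4) of them in the epithelium and 55.2% (48.8–61.5) in the endoderm, but 0.646% in the mesenchyme. Cdh11 took 65.2% (64.5–65.9) in the mesenchyme, and Cdh6 another 24.3% (23.7–24.9). In the endothelium Cdh2 took 39.4% (35.1–43.9) of these UMIs, beside 9.26% (8.84–9.70) in the mesenchyme, at a like level in CPM. The shares describe how a gene's part differs between groups and rank no gene against another.

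**Figure D2:**
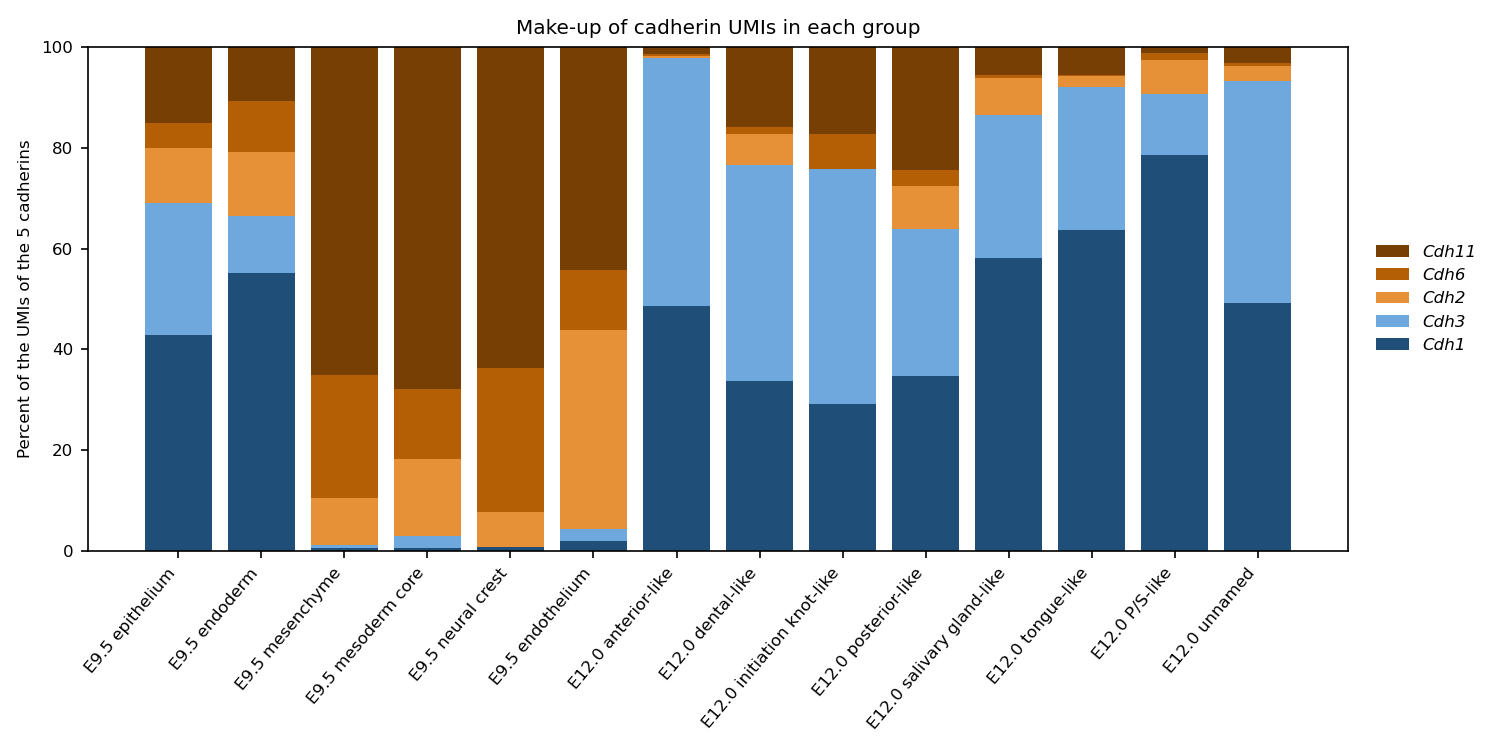
Each bar gives the percentage of the summed UMIs of Cdh1, Cdh3, Cdh2, Cdh6 and Cdh11 in 1 group of cells, for the E9.5 gates and the E12.0 zones. Cdh1 and Cdh3 fill most of every E12.0 zone, Cdh11 and Cdh6 most of the E9.5 mesenchyme, and the P/S-like zone has the largest part of Cdh1, 78.6%.

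Within the E9.5 epithelium, cells were divided by genes that mark regions of the arch: Vgll2 towards the oral side, Tfap2b towards the aboral side, and Sfn in periderm. In the cells with at least 2 Vgll2 UMIs (963) Cdh2 stood at 21.2 CPM (18.9–23.6), and in those with none (952) at 7.26 CPM (5.79–8.98). The ratio was 2.92 (2.29–3.76), the only call among the 6 members, beside 1.25% of all genes called in either direction. The epithelial Cdh2 was thus carried mainly by the Vgll2-positive cells, and the level in Vgll2-negative cells lay within the interval of the erythroid cells. The Vgll2-positive cells were deeper (median 15217 against 11374 UMIs). With every cell thinned to 4000 UMIs, 7.18% (5.63–8.999) of Vgll2-positive and 3.07% (2.06–4.37) of Vgll2-negative cells had a Cdh2 UMI, and the log2 ratio of Cdh2 went from 1.095 to 0.79, under the call. It was 0.99 with 1 gene more required in the gates.

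Cdh1 and Cdh3 leaned the other way in these cells without a call. Cdh1 was 45.9 CPM (42.5–49.4) in Vgll2-positive and 69.7 CPM (65.0–74.7) in Vgll2-negative cells, a ratio of 0.658 (0.594–0.729). Cdh3 had 28.7 and 42.1 CPM, a ratio of 0.682 (0.598–0.778). Epcam had overlapping intervals, at 519.8 CPM (508–531) and 523 CPM (510–536). As a share of the cadherin UMIs, Cdh2 took 17.6% (15.9–19.4) in Vgll2-positive and 4.86% (3.90–5.98) in Vgll2-negative cells. Cdh6 had 3.29 and 10.8 CPM, the second near the erythroid level. In cells thinned to 4000 UMIs its log2 ratio went from -0.93 to -1.08, so that at equal depth Cdh6 was called lower and Cdh2 was not called.

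Too few cells had 2 Tfap2b UMIs (44) for a value, so cells with at least 1 (184) were taken instead, a choice made after the counts were seen. None of 5 tested members was called in them against Tfap2b-negative cells, where 0.123% of genes were called. Cdh3 had 46.9 CPM (39.1–55.8) and 34.0 CPM (31.9–36.3), a ratio of 1.38 (1.14–1.66), and Cdh2 had 10.3 CPM (6.87–14.9) and 15.04 CPM (13.6–16.6). In the Sfn-positive cells (232) none of 5 tested members was called against 1418 Sfn-negative cells, beside 0.28% of genes. Cdh1 there was 67.8 CPM (59.3–77.1) against 54.4 CPM (51.1–57.7), and Cdh2 8.58 CPM (5.75–12.3) against 16.6 CPM (14.8–18.5). In both splits the marker-positive cells had less Cdh2 and more Cdh3 by ratios below the size of a call, and in the Tfap2b split the interval of the ratio held 1 for Cdh1 and Cdh2.

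In the E9.5 mesenchyme, Hand2 marks the distal part of the arch. None of 4 tested members was called between Hand2-positive (424) and Hand2-negative cells (2873), where 2.38% of genes were called. Cdh6 had 103 CPM (95.9–111) and 73.9 CPM (71.3–76.5), a ratio of 1.40 (1.29–1.52). Cdh2 had 38.0 CPM (33.6–42.9) and 27.9 CPM (26.4–29.6), a ratio of 1.36 (1.19–1.56). Cdh11 leaned the other way, at 187 CPM (177–198) and 214 CPM (209.9–219). Cdh3, under the level a call needs, had 5.37 CPM (3.78–7.40) in Hand2-positive and 1.39 CPM (1.06–1.80) in Hand2-negative cells, 3.85-fold (2.48–5.91) higher. Its log2 ratio with 5 CPM added, 0.70, was also short of a call. The ectoderm markers summed to 29.8 and 18.7 CPM in these cells, and their part in this difference was not tested. Thinned to 4000 UMIs, 3.095% (1.66–5.23) of Hand2-positive and 0.552% (0.309–0.909) of Hand2-negative cells had a Cdh3 UMI.

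**Figure D3:**
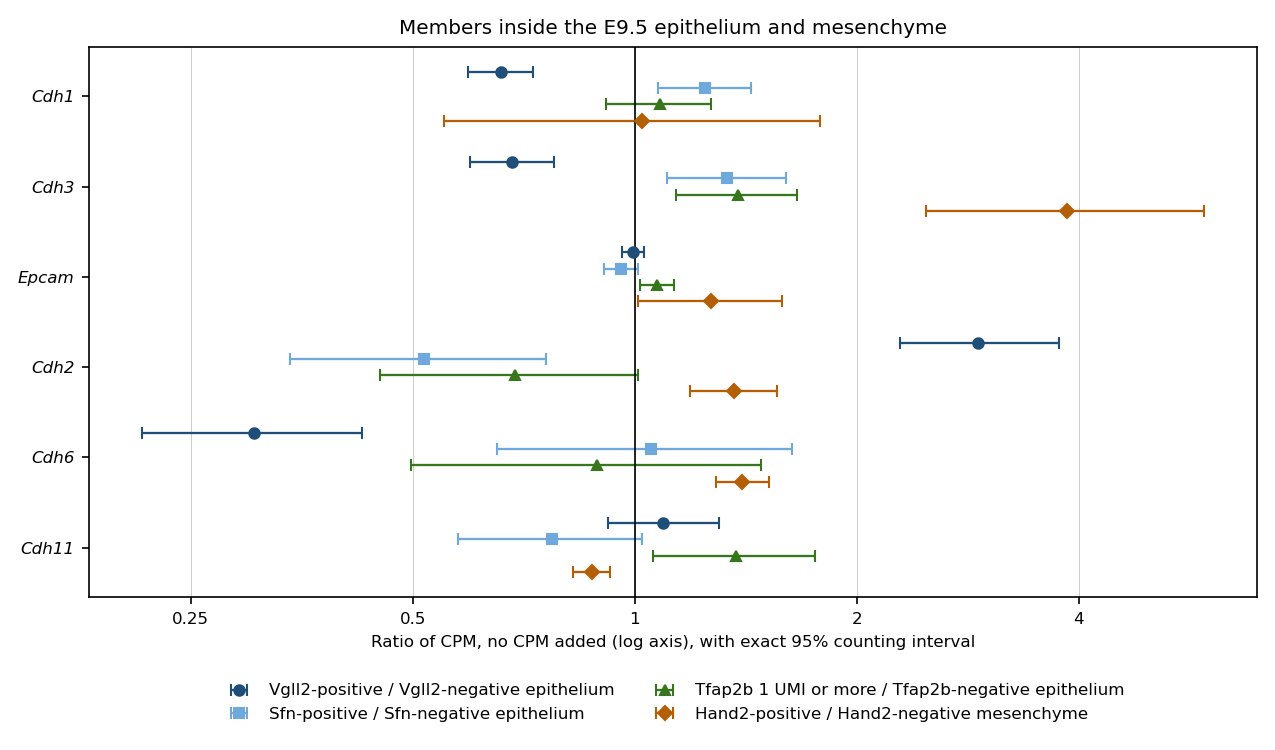
Ratios of CPM (log axis, no CPM added) of each member between cells with and without Vgll2, Sfn or Tfap2b in the E9.5 epithelium and Hand2 in the mesenchyme, with exact 95% counting intervals and a line at 1. Cdh2 lies at 2.92 for Vgll2, Cdh3 at 3.85 for Hand2, and Epcam between 0.959 and 1.27 in all 4 splits.

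The E12.0 library held sorted epithelium only, and each of its zones was compared with all other cells of the library. The mesenchyme markers summed to between 0.988 CPM in the tongue-like and 22.2 CPM in the dental-like cells, and Cdh5 was at 0 in every zone. No E12.0 cell met the E9.5 mesenchyme or endothelium gate, and no cell type that should lack the members was at hand to set a background. Cdh1 was found in every zone, at 105 CPM (102–107) over the library.

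Cdh1 reached its highest level in the P/S-like cells (periderm and suprabasal, 449 cells), at 319 CPM (299–340). The tongue-like cells followed at 182 CPM (164–201), the salivary gland-like at 131 CPM (123–139) and the anterior-like at 99.1 CPM (94.8–103). The initiation knot-like cells had 78.5 CPM (66.0–92.7), the posterior-like 73.8 CPM (68.3–79.5) and the dental-like, with the lowest level, 57.4 CPM (51.9–63.3). All neighbours in this order had separate counting intervals except the initiation knot-like and posterior-like cells. Over the 16 clusters Cdh1 spanned 6.80-fold, and the salivary gland-like ones had 133, 155 and 92.7 CPM. The P/S-like zone, in which Cdh1 was 3.33 times (3.11–3.56) its level elsewhere, was the only zone where it was called. Thinned to 4000 UMIs, 70.0% (65.3–74.4) of P/S-like and 19.3% (16.7–22.1) of dental-like cells had a Cdh1 UMI.

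Cdh3 had an order of its own. The initiation knot-like cells, the signalling centre of the forming tooth, were highest at 125 CPM (109–143), followed by the anterior-like at 100.3 CPM (96.0–105). The P/S-like cells were lowest, at 49.1 CPM (41.5–57.7), and were the zone with the most Cdh1. Between them lay the tongue-like (81.0 CPM), dental-like (72.5), salivary gland-like (64.3) and posterior-like cells (62.0), each overlapping the next. No zone was called for Cdh3. The 2 clusters of the dental-like zone differed, with Cdh1 at 64.7 and 47.0 CPM and Cdh3 at 54.4 CPM (47.4–62.0) and 98.1 CPM (87.0–110).

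Epcam was highest in the salivary gland-like cells, at 676 CPM (658–693), and then in the posterior-like cells, at 588 CPM (572–604). The salivary gland-like clusters had 751, 650 and 550 CPM, the last under the posterior-like level. Of the 6 salivary gland markers these clusters had 6, 4 and 3 raised, and the middle one also had 4 of 7 posterior markers raised. The leading genes of the last included Ube2c, Cenpf and Cdc20. The zone held 1144 cells here, but 386 at resolution 0.6, 806 at resolution 1.2 and 285 with LogNormalize. The P/S-like cells had 510.2 CPM (485–536) and the tongue-like 466 CPM (437–497), with overlapping intervals. The dental-like cells had 386 CPM (371–401), the initiation knot-like 328 CPM (302–356) and the anterior-like 315 CPM (307–323). No zone was called for Epcam, and its 16 clusters spanned 2.93-fold. Among the named zones, those with the most Cdh3, initiation knot-like and anterior-like, were thus those with the least Epcam. This did not extend to the clusters without a name. The one led by Gria2 and Pcdh9 had the highest Cdh3 of all clusters, 135 CPM (102–175), with Epcam at 426 CPM (366–494). Among the clusters without a name, Epcam ran from 257 CPM (247–266), in the one led by Fgf8 and Timp3, to 715 CPM (694–737), in the one led by Hist1h2bc and Ccnb2.

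Cdh2 was patchy among the E12.0 zones. It was at 27.5 CPM (21.9–34.2) in the P/S-like, 18.3 CPM (15.6–21.2) in the posterior-like and 16.3 CPM (13.7–19.2) in the salivary gland-like cells. The dental-like cells had 10.5 CPM (8.25–13.2), the tongue-like 6.42 CPM (3.42–10.98) and the anterior-like 0.675 CPM (0.369–1.13). In the initiation knot-like cells 0 of 227 cells had a UMI, which by 3 counts allows up to 1.32% of cells with one. The anterior-like level was 16.2-fold (9.60–29.9) under that of other cells and was called, with Cdh11, so 2 of 5 tested members were called there beside 2.91% of genes. In the P/S-like cells Cdh2 was 3.70 times (2.90–4.67) its level elsewhere, and with Cdh1 it made 2 of 5 tested members called, beside 5.29% of genes. The call was lost with a limit on mitochondrial counts of 5% in place of 10%. Then 140 P/S-like cells remained, Cdh2 there was 18.5 CPM (11.1–28.9), and its log2 ratio went from 1.39 to 0.54.

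Among the salivary gland-like clusters Cdh2 ranged from 3.77 CPM (1.52–7.77) to 25.5 CPM (20.8–30.9), and in the dental-like clusters it was 5.66 and 17.4 CPM. None of 5 tested members was called in the salivary gland-like zone (2.95% of genes called), in the dental-like zone (5 tested, 3.12%) or in the tongue-like zone (4 tested, 2.49%). Cdh2 in the posterior-like zone had a ratio of 2.66 (2.22–3.18) to other cells and a log2 ratio of 0.97 with 5 CPM added, just short of the call.

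Cdh11 was called higher in the posterior-like and the initiation knot-like cells at E12.0. It stood at 52.1 CPM (47.6–57.0) in the posterior-like, 46.3 CPM (36.8–57.5) in the initiation knot-like and 26.9 CPM (23.2–31.1) in the dental-like cells. The tongue-like cells had 15.8 CPM (10.8–22.3), the salivary gland-like 12.5 CPM (10.3–15.1), the P/S-like 4.98 CPM (2.79–8.21) and the anterior-like 2.80 CPM (2.12–3.62). The first 2 could not be separated, and neither could the tongue-like and salivary gland-like or the P/S-like and anterior-like cells. In the posterior-like cells Cdh11 was 5.64 times (5.00–6.35) its level elsewhere, the 1 member of 5 tested that was called, beside 2.64% of genes. The mesenchyme markers of those cells summed to 3.87 CPM, beside 1584 CPM in the E9.5 mesenchyme, where Cdh11 was 209 CPM. In the dental-like cells they summed to 22.2 CPM, with 3 of the 6 markers at 0, and their part in the Cdh11 of that zone was not tested. The log2 ratio of the dental-like cells was 0.82, not called, and with at most 5% mitochondrial counts it was -0.0058. The dental-like level itself was then 22.6 CPM (17.0–29.4) in 290 cells, an interval that overlapped the one without this limit. The cells compared with them also changed, as the anterior-like cells, low in Cdh11, fell from 2856 to 420. The part of this in the ratio was not tested. Thinned to 4000 UMIs, 16.9% (14.8–19.1) of posterior-like and 0.985% (0.650–1.43) of anterior-like cells had a Cdh11 UMI.

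Cdh6 was the rarest member at E12.0, with 186 UMIs in 170 of 11355 cells. The initiation knot-like cells held 33 of these, a level of 18.6 CPM (12.8–26.2) and 9.27 times (6.16–13.6) that of other cells. With Cdh11, at 3.40 times (2.68–4.26), both type II members were called there, 2 of 5 tested, beside 5.98% of genes. The posterior-like cells had 6.56 CPM (5.02–8.42) of Cdh6 and the other zones 0.494 to 5.31 CPM. Cdh6 in the knot-like cells was 19.4 CPM (13.0–27.9) without called doublets, which made up 9.25% of that zone. With at most 5% mitochondrial counts it was 8.55 CPM (2.78–20.0), from 5 UMIs in 72 cells, and no longer called.

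**Figure D4:**
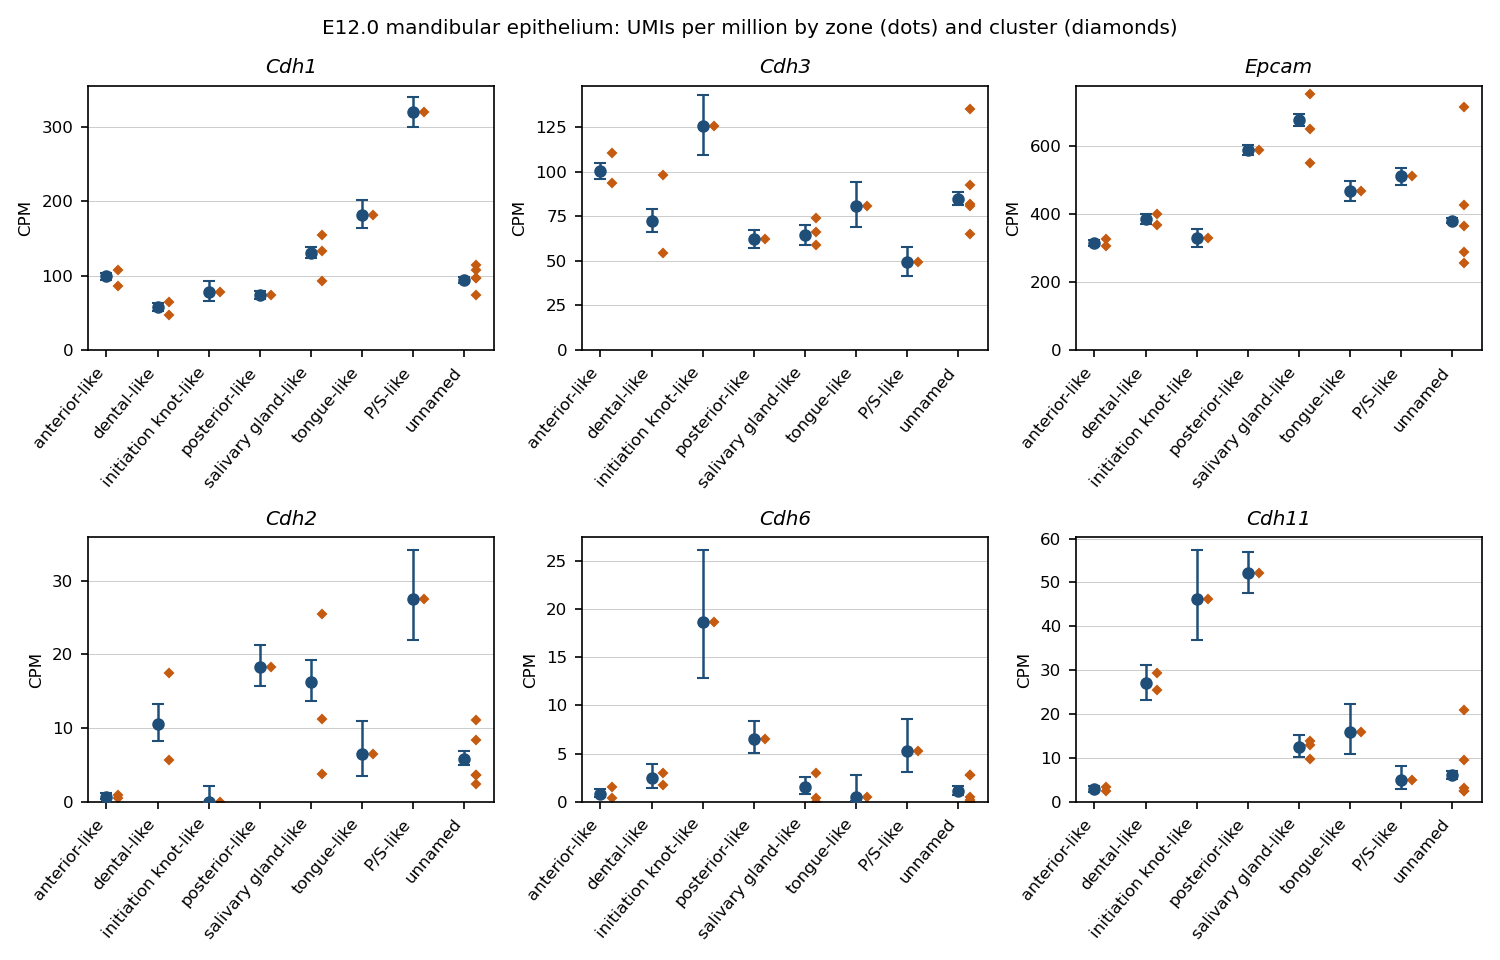
Levels of the 6 members in the E12.0 zones, in CPM (UMIs per 1000000 of the zone), as dots with exact 95% Poisson intervals, with the single clusters of each zone as diamonds (1 library, no replicates). Cdh1 peaks in the P/S-like cells, Epcam in the salivary gland-like cells, Cdh11 in posterior-like and initiation knot-like cells, and Cdh2 has no UMI in the initiation knot-like cells.

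As shares of the cadherin UMIs, Cdh1 took 78.6% (76.2–80.9) in the P/S-like, 63.7% (59.6–67.6) in the tongue-like and 58.1% (55.8–60.3) in the salivary gland-like cells. It took 29.2% (25.2–33.5) in the initiation knot-like cells, where Cdh3 took 46.6% (42.1–51.2) and Cdh11 17.2% (13.9–20.9). In the anterior-like cells almost all of these UMIs were of Cdh1 (48.6%) and Cdh3 (49.2%). The posterior-like cells were the most mixed, with Cdh11 at 24.5% (22.6–26.5) and Cdh2 at 8.59% (7.39–9.91).

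Co-detection was read in cells thinned to 4000 UMIs, as the cells with both genes over the number expected if the genes were placed independently. Pairs among Cdh1, Cdh3 and Epcam were near that number in every group with a value. In the epithelial groups most cells had Epcam, which limits how far its pairs could rise above that number. In the E9.5 epithelium, 366 cells had Cdh1 and Epcam, 1.02 times (0.923–1.11) the expected, and 14 had Cdh1 and Cdh2, 0.661 times (0.362–1.11). In the E9.5 mesenchyme, Cdh6 with Cdh11 was seen in 504 cells, 1.13 times (1.04–1.22) the expected, and Cdh2 with Cdh6 in 118 cells, 1.27 times (1.06–1.52). Both of these pairs were thus found together slightly more often than independent placement gives. Cdh2 and Cdh6 were both higher in Hand2-positive mesenchyme, and the part of such regions in the ratios was not tested.

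Over all E12.0 cells Cdh2 with Cdh11 was seen in 32 cells, 2.40 times (1.64–3.39) the expected. Within the posterior-like zone, where both had levels above those elsewhere, it was seen in 16 cells, 1.30 times (0.744–2.10). Of the 212 posterior-like cells with a Cdh11 UMI, 83.0% also had Epcam, beside 84.6% of all posterior-like cells, a ratio of 0.982 (0.851–1.13). In the initiation knot-like cells 22 of 31 cells with Cdh11, and 11 of 16 with Cdh6, had Epcam, at 0.977 (0.623–1.44) and 0.946 times (0.477–1.66) the expected. Since most cells of these zones had Epcam, such shares do not separate UMIs made by a cell from stray ones. The pairs of Cdh11 or Cdh6 with Epcam, and of Cdh1 with Cdh11, were added after the levels had been seen.

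**Figure D5:**
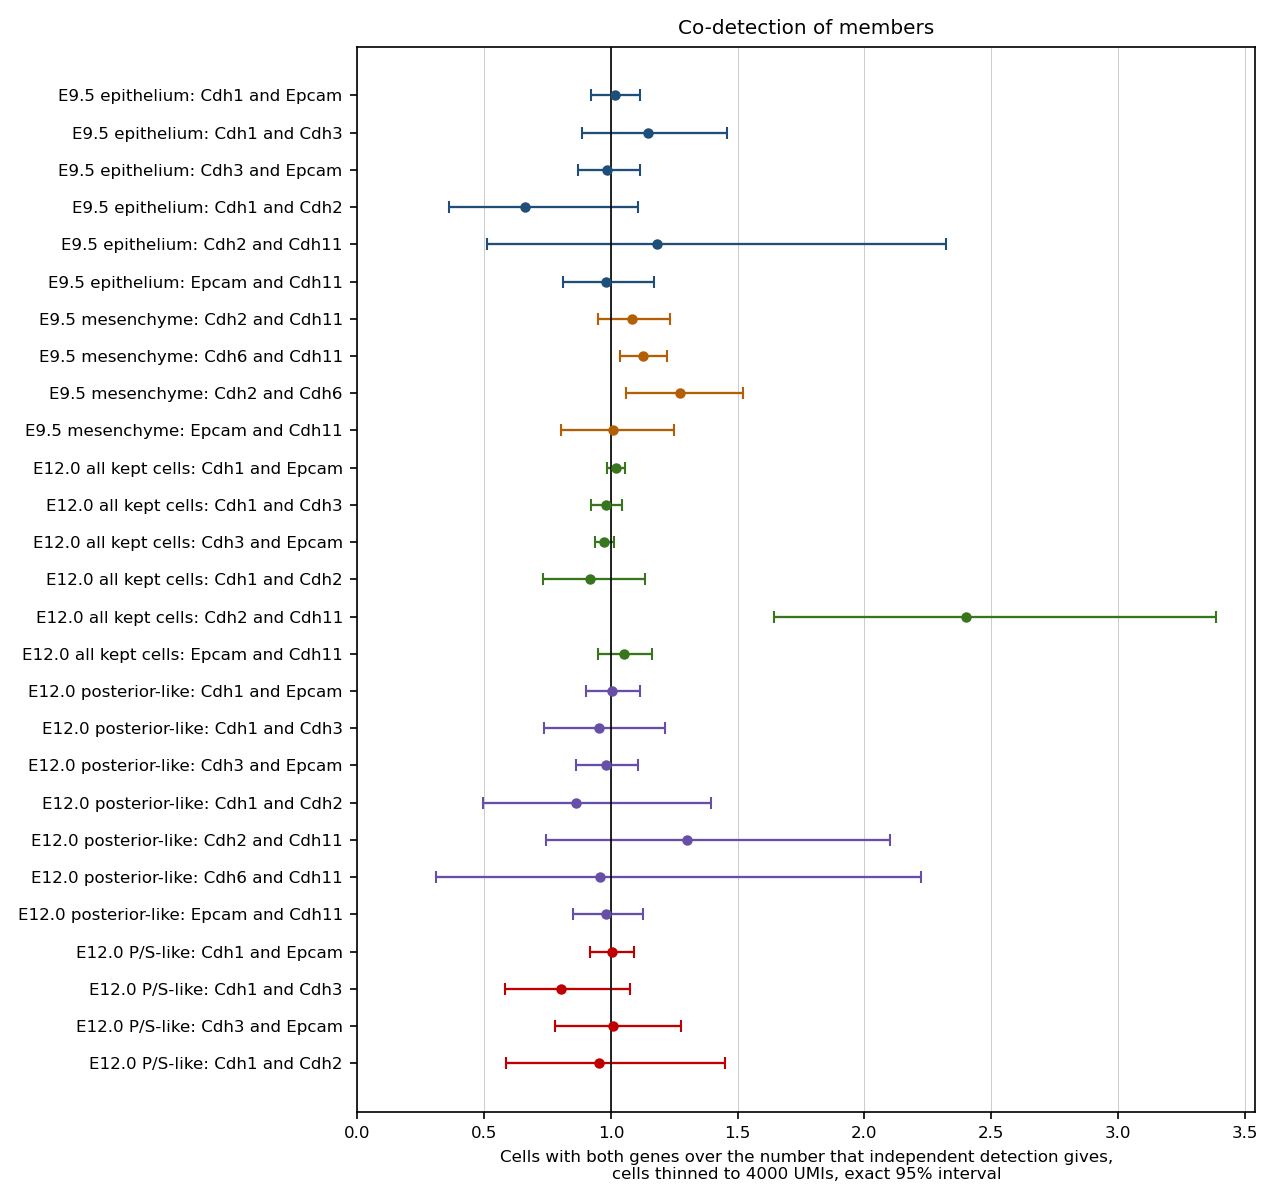
Cells with both genes of a pair divided by the number expected from independent placement, in cells thinned to 4000 UMIs, with exact 95% binomial intervals of the count and a line at 1. Pairs of epithelial members lie near 1, and Cdh2 with Cdh11 over all E12.0 cells lies at 2.40.

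Genes that work with cadherins were read from lists of other classical cadherins (13 genes), catenins (7), nectins and afadin (5) and repressors of Cdh1 (4). Between E9.5 epithelium and mesenchyme, 3 of 4 tested repressors were called lower in the epithelium. Snai1 had 4.69 and 67.3 CPM, Zeb1 2.56 and 36.9 CPM, and Zeb2 3.68 and 58.7 CPM, while Snai2 had 14.5 and 17.0 CPM and was not called. The median log2 ratio of the repressors was -2.67, and none of 4 tested catenins (median 0.50) was called. Of 4 tested nectin genes (median 1.497), Nectin1 (28.9 and 6.74 CPM), Nectin2 (156 and 53.4 CPM) and Afdn (224 and 37.4 CPM), which links nectins to actin, were called higher in the epithelium. The mesoderm core had less Snai1 (10.8 CPM) and more Zeb1 (87.4 CPM) and Snai2 (47.6 CPM) than the mesenchyme, all called.

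At E12.0 the P/S-like cells had calls among the catenins and the nectins. The catenins Jup (268 CPM, other cells 60.3 CPM) and Ctnnd2 (109 and 49.1 CPM) were called higher, 2 of 5 tested with a median log2 ratio of 0.71. Nectin4 (445 and 37.7 CPM) and Nectin3 (208 and 46.9 CPM) were called among 5 tested (median 0.86), where the median of all genes was -0.03. The epithelial repressor Ovol1 (83.6 and 4.67 CPM) was called higher too. The P/S-like cells therefore carried, beside Cdh1, several other adhesion genes at a higher level than the rest of the library. The call of Cdh2 there was lost with at most 5% mitochondrial counts, as given above. The general epithelial markers summed to 1516 CPM in these cells and 684 CPM over the library, and a link between these rises was not tested.

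In the initiation knot-like cells Ctnnb1, which encodes beta-catenin, had 1717 CPM beside 746 CPM elsewhere, the 1 catenin of 5 tested that was called, and Nectin3 had 177 and 50.3 CPM. Ctnnd2 was called higher in posterior-like cells (101 and 44.7 CPM). Nectin4 was called lower in anterior-like cells (23.8 and 64.2 CPM), and the only other classical cadherin called in a zone was Cdh8, at 11.4 CPM in tongue-like and 1.15 CPM in other cells.

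Across 14 groups of both libraries (8756 genes compared), the genes whose log2 levels, centred within each library, ran most like each member were found by Pearson's r, given as a description because the groups share libraries and depth. For Cdh1 they were Rab15 (r = 0.974), the tight junction gene Cgn (0.965) and Rbm47 (0.960). For Cdh3 they were Npnt (0.952), Fras1 (0.947), both of the basement membrane, and Tlk1 (0.938). For Epcam they were Bex4 (0.985), the serine protease gene Prss8 (0.985) and Grhl2 (0.983), of which Grhl2 had served in the epithelial gate. The likeness was weaker for the other members. It was 0.906 for Cdh2 with Phactr4, 0.904 for Cdh11 with Drg1 and 0.864 for Cdh6 with Exosc9, while the growth factor receptor gene Pdgfrb followed for Cdh6 at 0.861.

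Set beside the E9.5 epithelium, the E12.0 cells had 1 of 5 tested members called, beside 18.9% of genes called in either direction. The E12.0 side was all kept cells, of which 6498 met the E9.5 epithelium gate and 4664 met no gate. The E9.5 side was gated cells only, so the cells were not chosen alike. Cdh3 was at 82.3 CPM (80.3–84.4) in E12.0 and 35.2 CPM in E9.5 epithelium, a ratio of 2.34 (2.19–2.50). Cdh1 had 105 and 57.5 CPM, a ratio of 1.82 (1.72–1.92), and Epcam 426 and 518 CPM, a ratio of 0.823 (0.808–0.839). Cdh2, at 8.22 and 14.6 CPM, had a ratio of 0.563 (0.497–0.637). Cdh11 had 14.4 and 20.3 CPM, the second not separated from the erythroid level above, a ratio of 0.707 (0.640–0.782). Over all genes tested the median log2 ratio was 0.18, and scaling by the median ratio of genes placed Cdh3 at 1.00, still called, and Cdh1 at 0.69. With at most 5% mitochondrial counts Cdh3 was at 0.92 and not called. Under that limit Cdh11 moved from -0.39 to 0.14, a change of sign, Cdh2 from -0.57 to -0.25 and Epcam from -0.28 to -0.11. The limit fell unequally on the stages, whose median mitochondrial shares were 5.50% (E12.0) and 1.54% (E9.5). It kept 2110 of 2131 E9.5 epithelial cells, but 420 of 2856 anterior-like and 290 of 891 dental-like cells at E12.0. The zone make-up of the E12.0 side thus changed too, and its part in these moves was not tested. Cdh1 went from 0.81 to 0.79. Among catenins, 4 of 5 tested were called higher at E12.0 (median log2 ratio 1.28), among them Ctnnb1 (768 and 316 CPM) and Jup (68.3 and 13.0 CPM). Of 5 tested nectin genes (median 0.43), Nectin4 was called higher (53.5 and 3.95 CPM) and Nectin2 lower (52.99 and 156 CPM), and Snai2, the 1 repressor of Cdh1 tested, was called higher (66.8 and 14.5 CPM). Stage, library, GFP sort, enzyme treatment and the choice of cells differed together. The file headers also name a different Cell Ranger version for each library, and the gene lists held 27998 and 31053 genes. All of these cannot be told apart in these ratios.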

How the data were processed

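Mandibular cells of 2 libraries, E12.0 and E9.5, were measured by 10x Genomics 3′ single-cell RNA sequencing. The authors deposited UMI counts per gene and cell barcode, made with Cell Ranger and without normalization, and barcodes had been selected as cells before deposit. The study's methods name GRCm38 as the genome and Cell Ranger 2.0.0. The file headers name Cell Ranger 3.1.0 for 1 library and 6.1.2 for the other, so they differ from the methods and between the stages. The mandibles or arches of several embryos were pooled, so each stage is 1 sample.

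Cells with 200 to 5500 genes and at most 10% mitochondrial counts were kept, 11355 cells with 77936364 UMIs (E12.0) and 12744 cells with 166191431 UMIs (E9.5). Doublets were called with Scrublet in scanpy 1.11.5 (5.82% and 2.60% of kept cells) but not removed, and their removal was an alternative. E12.0 cells were clustered with Seurat 5.3.0 (SCTransform with cell cycle, sex and lincRNA scores regressed, 30 principal components, resolution 0.9), with adhesion genes kept out of the variable features. A cluster was named when at least 3 markers of a class were raised 1.5-fold in at least 5% of cells, unless more markers of another class were among its 10 leading genes or its median UMI count was under 1/3 of the library's with no own marker among them. E9.5 cells were gated by marker counts, with at least 3 general epithelial genes and 2 ectodermal or endodermal genes for the epithelia and at least 3 markers elsewhere. Groups under 50 cells, such as the Pax1-positive endoderm (45 cells), got no value.

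Counts were summed per group and compared as CPM ratios with 5 CPM added. Genes with at least 10 CPM in either group were tested by the call. Intervals were exact, Poisson for CPM, conditional binomial for ratios and Clopper-Pearson for shares, and cover counting error only. The floor for a count of 0 was 3 counts. Shares were also counted in cells thinned to 4000 UMIs, which left out 916 and 1715 shallower cells. The scripts were tested on simulated counts. The members, gene lists, markers and named genes were chosen with earlier results of these data known, and the named genes are the members, the called genes of the lists (some genes are not reported here) and the 3 genes most like each member. Symbols were matched to positions through the GENCODE annotation of GRCm38 by gene identifier. Promoters were found in the RefSeq table for Epcam and Cdh6.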

Additional observations from a re-analysis of the deposited data

How the results depend on the processing

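The members called kept their number, within 1.5 times, in all 17 comparisons without a minimum level and under median ratio scaling, and no log2 ratio of a called member changed sign. Some members without a call did change sign, such as Cdh11 between stages with at most 5% mitochondrial counts. A call at 1.5-fold, given here with the share of all genes that met it, raised the number from 1 to 4 in the endoderm (6.81%), 2 to 4 in P/S-like cells (12.7%), 1 to 2 in Vgll2-positive cells (4.72%), posterior-like cells (5.98%) and between stages (42.1%), 0 to 2 in dental-like (7.65%) and salivary gland-like cells (7.03%), and 0 to 1 in Sfn-positive (1.59%) and tongue-like cells (6.69%). Adding 1 CPM gave 2 in Vgll2-positive (2.25%) and posterior-like cells (3.68%) and 1 in salivary gland-like cells (4.1%). Posterior-like cells had 2 called members, Cdh2 joining Cdh11, also with the mean of per-cell CPM, without doublets, with LogNormalize and at resolutions 0.6 and 1.2 (2.72% to 2.97% of genes), and dental-like cells had 1, Cdh11, at resolution 0.6 (3.36%). The call fell to 0 in the endoderm with thinned cells, in the mesoderm core with the mean of per-cell CPM, 1 gene more in the gates and E9.5 clusters, in Vgll2-positive cells with 1 gene more in the gates, and between stages with at most 5% mitochondrial counts. That limit kept 3254 of 11355 E12.0 cells, among them 420 of 2856 anterior-like ones, so both sides of the E12.0 comparisons changed. It replaced Cdh2 by Cdh11 (log2 ratio -2.04) among the P/S-like calls and Cdh6 by Cdh2 among the initiation knot-like ones. Thinning replaced Cdh2 by Cdh6 in Vgll2-positive cells. The erythroid levels without their top cell were chosen after seeing the data. The causes were not tested. Resolution 0.6 gave 6 of the 7 zones. Genes with few UMIs, above all Cdh6 at E12.0, are limited by depth. No paired analysis was possible because each stage has 1 library.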
